A study of Mus musculus with 155 samples.

Results

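The ligands and receptors of axon guidance were followed through a differentiation series of mouse embryonic stem cells (ESCs). They were 59 listed genes out of 55471 in the deposited tables. The list was made by name and without a cutoff on a measured value, but with earlier results of these data known. It held 19 semaphorins, 8 plexins, 2 neuropilins, 3 Slits, 3 Robo receptors, 2 netrins, 5 netrin receptors, 8 ephrins and 9 Eph receptors. All samples came from KH2, a mouse ESC line in which doxycycline (Dox, 1 µM) switches on a single-copy transgene. The transgene encoded histone H3.3 with a SNAP-HA tag, as the wild type (WT-H3.3) or with lysine 27 replaced by methionine (H3.3K27M) or leucine (H3.3K27L), so that all groups compared here carried a tagged H3.3. In ESCs kept in 2i/LIF, each of the 3 lines had 8 libraries, with 2 replicates at each of 4, 8, 24 and 72 h of Dox. A further 8 libraries came from WT-H3.3 ESCs given GSK343, an inhibitor of EZH2, the methyltransferase of the Polycomb complex PRC2. Cells treated with retinoic acid (RA, 1 µM) without 2i/LIF had 1 library per line at 24 h of Dox and 1 at 72 h. The methods place the 72 h libraries at the end of a 4-day treatment and do not give the RA time of the 24 h libraries, so that Dox time and time in RA cannot be told apart. The oligodendrocyte progenitor (OPC) cultures, grown from embryoid bodies with RA and purmorphamine over up to 30 days, had WT-H3.3 and H3.3K27M libraries, 1 each at 24 and 72 h. Where the labels name no separate culture, the p-values below measure the spread between these libraries, which may be technical.

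Growing axons steer by diffusible and membrane-bound cues. Semaphorins signal through plexins, with neuropilins as co-receptors for most secreted class 3 members. Slits act on Robo receptors and netrins on Dcc and Unc5 receptors, while ephrins and Eph receptors signal between touching cells in both directions. These families also act outside the nervous system, in vessels, neural crest, epithelia and early embryonic cells, and many of their genes are silent targets of PRC2 in ESCs.

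The total count per library was 5295859 to 21161392 in 30 of the ESC libraries, 2239137 to 22269533 in RA-treated cells and 7499258 to 12387113 in OPC cultures. Of the other ESC libraries, H3.3K27L replicate 2 at 72 h held 68378 counts, so that 1 count in it equals a CPM (the count scaled to a common library size) of 14.23, and GSK343 replicate 2 at 8 h held 1247934. Most ESC values of 0 or about 14.2 CPM quoted below are from the first of these. Chromosome 8, left out of the tests, held 4.09% to 4.12% of the counts in the other H3.3K27L replicate 2 ESC libraries (3.47% in the 68378-count library), against 5.69% to 6.09% in all other ESC libraries, so that this replicate stands apart from the rest. The labels call the RA-treated cells neural progenitors. Their summed neural progenitor markers ran from 838 to 2421 CPM at 24 h, against 355.8 to 714.3 CPM in ESCs, and Pax6 was 14.95 CPM (median at 24 h), but Fabp7 and Hes5 stayed at 0.190 and 0.237 CPM. Vim alone was at 606.6 to 1780 CPM at 24 h. At 72 h the summed markers were at 367.1 to 957.1 CPM, which overlaps ESCs, and neuron markers summed to 78.15 to 100.2 CPM at 24 h, below the 284.5 to 802.3 CPM of ESCs. Much of that ESC sum was Stmn2, at 179.6 to 463.9 CPM in ESCs and 2.86 to 3.80 CPM at 24 h. Of 12 neuron markers 8 had a mean of at least 1 CPM in ESCs and 9 at 24 h. In the same libraries 11 of 11 tested extraembryonic endoderm markers were higher than in ESCs (4012 to 25215 CPM summed, against 270.3 to 585.8), as were 10 of 11 fibroblast markers. The labelled OPC cultures had Olig2 at 335.5 CPM (WT-H3.3) and 1098 CPM (H3.3K27M), while Sox10 was 2.94 and 0.369 CPM and Pdgfra 21.5 and 0.747 CPM. In bulk libraries such as these, fewer cells of a type and less RNA per cell cannot be told apart, and the part of other cell types in the results below was not tested.

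To show how the sequence around a listed transcription start differs between these genes, 4 windows are given. Among the members that have a window, Robo2 and Sema7a had the largest called rise and fall in RA-treated cells at 24 h against ESCs, and Epha5 and Sema3e in H3.3K27M against WT-H3.3 OPC cultures, though the call of Sema7a depended on the libraries used, as given with its values. Each runs from 250 bases before to 50 bases after a RefSeq transcription start of GRCm38.p6, and capitals mark CG dinucleotides. Whether these starts are the ones used in the cells studied was not tested. The windows lie at chr16:75447244-75447543 on the minus strand (Robo2), chr9:57939862-57940161 on the plus strand (Sema7a), chr5:84417333-84417632 on the minus strand (Epha5) and chr5:14025026-14025325 on the plus strand (Sema3e). That of Robo2 lies outside the mm9 span of the gene, chr16:73892551-74412070. Robo1, on the same chromosome, starts at 72663394 in mm9 and has its window at chr16:72662899-72663198. The window of Sema3a, chr5:13396534-13396833, lies inside the mm9 span of that gene, chr5:13125593-13602565. A window may thus lie far from the gene start of the mm9 annotation.
Robo2: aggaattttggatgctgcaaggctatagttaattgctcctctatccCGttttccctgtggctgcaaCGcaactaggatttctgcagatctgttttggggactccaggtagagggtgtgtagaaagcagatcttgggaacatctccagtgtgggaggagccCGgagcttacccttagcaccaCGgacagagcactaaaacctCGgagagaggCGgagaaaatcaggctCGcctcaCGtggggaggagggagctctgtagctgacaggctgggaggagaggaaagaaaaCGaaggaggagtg
Sema7a: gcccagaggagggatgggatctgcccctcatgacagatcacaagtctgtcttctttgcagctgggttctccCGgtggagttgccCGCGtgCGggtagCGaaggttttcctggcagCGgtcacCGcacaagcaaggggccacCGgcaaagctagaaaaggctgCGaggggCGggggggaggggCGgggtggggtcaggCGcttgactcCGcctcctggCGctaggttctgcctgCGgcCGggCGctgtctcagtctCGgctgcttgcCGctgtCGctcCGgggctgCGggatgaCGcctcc
Epha5: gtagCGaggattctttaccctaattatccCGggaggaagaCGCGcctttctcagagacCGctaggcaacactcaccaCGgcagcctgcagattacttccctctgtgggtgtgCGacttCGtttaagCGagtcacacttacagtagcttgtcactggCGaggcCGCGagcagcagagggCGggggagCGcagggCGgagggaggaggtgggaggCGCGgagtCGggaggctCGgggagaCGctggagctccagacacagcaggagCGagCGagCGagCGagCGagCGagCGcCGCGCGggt
Sema3e: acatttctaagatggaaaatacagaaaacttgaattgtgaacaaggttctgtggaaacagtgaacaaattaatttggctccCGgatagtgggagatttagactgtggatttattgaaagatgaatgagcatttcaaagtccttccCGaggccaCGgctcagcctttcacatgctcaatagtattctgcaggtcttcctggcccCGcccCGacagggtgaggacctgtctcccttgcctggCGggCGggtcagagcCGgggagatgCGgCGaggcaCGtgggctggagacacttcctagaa
The 4 windows held 9, 23, 30 and 11 CG dinucleotides in this order. Of the 59 members 49 had such a window, and 10 had no entry in the table used. Over the 49 windows the median was 23 CG dinucleotides (lowest 2, highest 42), beside a median of 7 over the windows of 27025 genes. The latter are all genes with a window, not limited to genes tested or expressed here. Their median GC content was 52.7%, beside 65.3% for the members, and the shares below were not adjusted for it. At least 10 CG were found in 43 of the 49 windows (87.8%), beside 43.9% of all windows. RA acts through nuclear receptors that bind pairs of short half-sites. On either strand, the half-site AGGTCA was in 6 member windows (12.2%, beside 16% of all), AGTTCA in 2 (4.08%, beside 14%) and the direct repeat (AGGTCA, then NNNNN, then AGGTCA), which contains the first half-site, in 0 (beside 0.0074%). The letters TATAAA were in 2 windows (4.08%, beside 14.2%) and CAGCTG in 3 (6.12%, beside 16.1%).

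Plxnb2, Robo1, Ntn1 and Unc5b led the plexins, Robo receptors, netrins and netrin receptors per length of exon at every stage, and the leading member of the other families changed. Compared as CPM per kb of exon, a level per length, the highest semaphorin was Sema4b in ESCs (13.9), Sema3c in RA-treated cells at 24 h (18.3), Sema4c at 72 h (17.1) and Sema6a in OPC cultures (20.5). Among Eph receptors it was Epha2 in ESCs (31.3), Ephb4 at 24 h of RA-treated cells (17.1), and Ephb3 at 72 h (42.6) and in OPC cultures (32.2). Of the ephrins, Efna4 led in ESCs (12.4), Efnb2 in RA-treated cells at 24 h (45.6) and Efna2 at 72 h (33.8), while in OPC cultures it was Efnb1 with WT-H3.3 (20.3) and Efna2 with H3.3K27M (40.2). Without division by length some leaders differed. By mean CPM Plxna1 led the plexins (293.4) and Ephb3 the Eph receptors (85.34) at 24 h of RA-treated cells, and Robo2 the Robo receptors in OPC cultures (15.55). The libraries compared may come from different kits, and no test was made between genes.

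**Figure D1:**
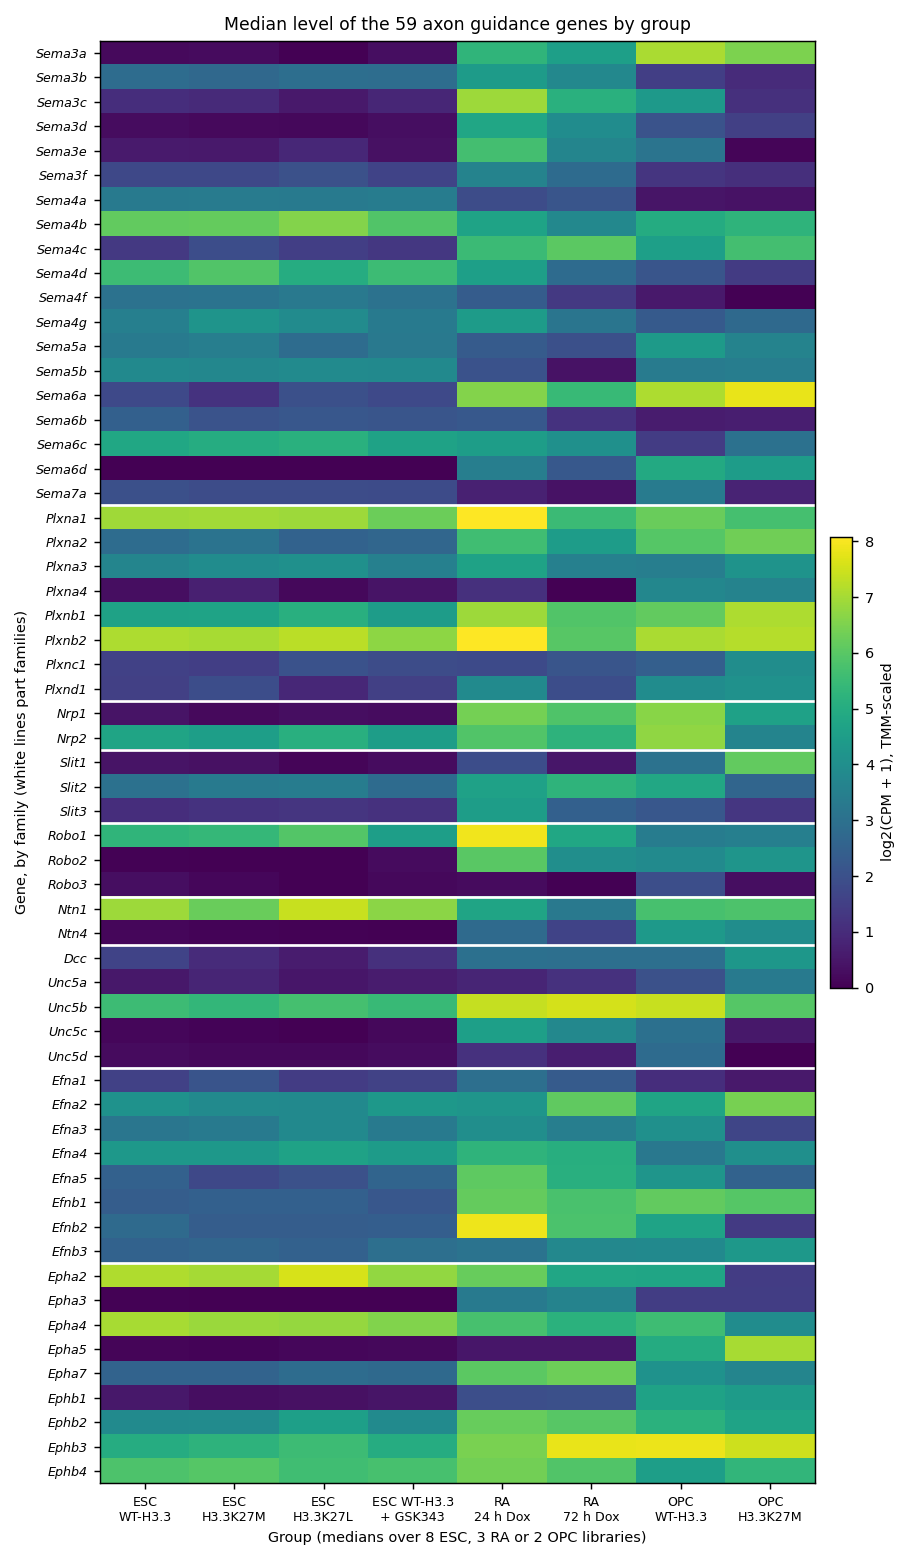
Levels of the 59 genes (rows, by family) in the groups of libraries (columns), as log2 of the median CPM + 1 (colour). The block of low ESC values for Robo2, Sema3a, Sema6d and Epha3 becomes high in RA-treated cells, and the OPC columns differ between WT-H3.3 and H3.3K27M for Sema3e, Epha2 and Slit1.

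How these genes differ between the stages was tested on the 24 ESC libraries of the 3 lines, the 3 RA libraries of each Dox time and the 4 OPC libraries. The edgeR quasi-likelihood test with Benjamini-Hochberg adjustment over 15527 genes was used, with calls made at an adjusted p under 0.05 and more than 2-fold in either direction. Of the members 55 were tested. In RA-treated cells at 24 h, 39 of 55 were called, 33 higher and 6 lower than in ESCs, where 43.3% of all genes were called (24.6% higher, 18.7% lower). At 72 h 37 were called, 25 higher and 12 lower (57.7% of all genes, 26.6% higher and 31.1% lower). In OPC cultures 43 were called, 30 higher and 13 lower (67.1% of all genes, 31.4% higher and 35.7% lower). The median log2 fold change of the members was 1.54, 0.99 and 1.32 in these comparisons, beside 0.03, -0.17 and -0.10 over all genes tested. These counts and medians include 12 members, named below, that passed the filter on low counts only through RA or OPC levels. No median without those 12 is given. Size factors of DESeq2 in place of TMM moved the median of all genes from 0.03 to 0.13, from -0.17 to 0.19 and from -0.10 to 0.18, and that of the members to 1.64, 1.36 and 1.60. All 3 comparisons use the same ESC libraries, so their values are given side by side and not as separate support.

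Of the 55 genes, 12 passed the filter on low counts only through their level in RA-treated cells or OPC cultures (they were not tested among ESC libraries alone), and 11, 8 and 12 of these were called higher in the comparisons. They are Sema3a, Sema3d, Sema6d, Plxna4, Slit1, Robo2, Ntn4, Unc5a, Unc5c, Epha3, Epha5 and Ephb1. At their low level in ESCs such genes could hardly be called lower. Robo3 was left out by the filter, and Nrp1, Unc5d and Efnb2 lie on chromosome 8, which the authors left out for a possible duplication in the clones. Of 24 receptors 17 were higher and 1 lower at 24 h, 10 and 4 at 72 h, and 17 and 3 in OPC cultures. Of 31 ligands these counts were 16 and 5, 15 and 8, and 13 and 10. Plxna4, Robo2, Unc5a, Unc5c, Epha3, Epha5 and Ephb1 are receptors among these 12, and whether receptors and ligands differ was not tested.

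In the values that follow, ESC levels are the lowest, median and highest of the 24 libraries, RA levels give the WT-H3.3 library first, then those of H3.3K27M and H3.3K27L, and OPC levels give both libraries of a line, 24 h first. All are in CPM scaled by TMM. Positions are those of the mm9 annotation. Of all genes tested, 31.2% had no overlap between ESC and RA libraries at 24 h, 40.7% at 72 h and 43.7% between ESC and OPC libraries, which is the background for each statement that groups did not overlap.

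Semaphorins were called in both directions. Of 19 tested, 9 rose and 4 fell in RA-treated cells at 24 h, 7 rose and 7 fell at 72 h, and 7 rose and 9 fell in OPC cultures. Secreted class 3 members, which repel many axons through neuropilins and plexins, were among those with the largest rises. Sema3c, at chr5:17080099-17236086, was at 0, 0.861 and 1.70 CPM in ESCs and at 118, 183 and 89.3 CPM in RA-treated cells at 24 h. At 72 h it was at 42.4, 34.2 and 18.8 CPM, and in OPC cultures at 20.4 and 18.8 CPM with WT-H3.3 and 0.622 and 1.75 CPM with H3.3K27M. All RA libraries were above all ESC libraries, and among OPC libraries the H3.3K27M values reached into the ESC range. Its log2 fold change against ESCs was 7.33 ± 0.28 (SE) at 24 h, 5.26 ± 0.32 at 72 h and 3.11 ± 0.33 in OPC cultures (adjusted p 1.02e-22, 9.05e-17 and 1.25e-10). Sema3a, a repellent of sensory and sympathetic axons, was at 0, 0 and 0.912 CPM in ESCs, 37.98, 40.9 and 23.5 CPM in RA-treated cells at 24 h and 24.3, 22.8 and 9.40 CPM at 72 h. Its OPC levels were 138 and 126 CPM with WT-H3.3 and 101 and 78.3 CPM with H3.3K27M, the highest of any stage. The log2 fold changes were 7.85 ± 0.30, 6.96 ± 0.36 and 9.15 ± 0.29, and no library outside ESCs overlapped the ESC range. Sema3d and Sema3e rose in all 3 comparisons too, by 7.02 ± 0.30 and 6.05 ± 0.39 at 24 h, 6.12 ± 0.35 and 4.09 ± 0.51 at 72 h and 3.45 ± 0.38 and 2.36 ± 0.50 in OPC cultures. The OPC rise of Sema3e was in WT-H3.3 only (7.65 and 7.82 CPM), with H3.3K27M at 0.155 and 0 CPM.

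Among membrane-bound semaphorins, Sema6d and Sema6a, which can act as ligands and as receptors for plexins of class A, rose at every stage. Sema6d was at 0, 0 and 0.337 CPM in ESCs, 10.1, 9.35 and 17.8 CPM at 24 h of RA-treated cells and 1.68, 3.70 and 14.9 CPM at 72 h. In OPC cultures it was at 29.3 and 29.1 CPM (WT-H3.3) and 20.2 and 22.3 CPM (H3.3K27M), for log2 fold changes of 7.63 ± 0.33, 6.58 ± 0.43 and 9.16 ± 0.32 against ESCs. Sema6a went from 0, 2.21 and 4.38 CPM in ESCs to 94.95, 90.9 and 97.4 CPM at 24 h and 130.3 and 143 CPM (WT-H3.3) and 209.8 and 234 CPM (H3.3K27M) in OPC cultures (log2 fold changes of 5.33 ± 0.20 and 6.47 ± 0.20). Both genes were thus above every ESC library in all other libraries shown. Of the class 4 members, Sema4c, which signals through Plxnb2, rose by 4.36 ± 0.24, 5.25 ± 0.24 and 3.93 ± 0.23 on the log2 scale, while all calls of Sema4a, Sema4b, Sema4d, Sema4f and Sema4g were falls. Sema4b was at 14.2, 73.1 and 111 CPM in ESCs and at 21.1, 24.6 and 25.6 CPM at 24 h of RA-treated cells, and its log2 fold changes were -1.71 ± 0.22, -2.50 ± 0.25 and -1.06 ± 0.19. With the size factors of DESeq2 the fall of Sema4b in OPC cultures was no longer called. Sema4d, a ligand of Plxnb1, was at 0, 41.7 and 78.8 CPM in ESCs and fell in OPC cultures to 3.97 and 2.83 CPM (WT-H3.3) and 1.86 and 1.46 CPM (H3.3K27M) (log2 fold change -4.26 ± 0.28). Sema4a likewise fell to 0.194 and 0.567 CPM (WT-H3.3) and 0.466 and 0.146 CPM (H3.3K27M) in OPC cultures from 6.43, 9.24 and 14.2 CPM in ESCs (-4.70 ± 0.31). Sema7a, a membrane-anchored member that promotes axon growth through integrins, fell at 24 h of RA-treated cells, with 0, 2.86 and 4.88 CPM in ESCs and 1.74, 0.665 and 0.130 CPM after RA (-1.95 ± 0.52, adjusted p 0.00124). With only the WT-H3.3 libraries of all stages the log2 fold change of Sema7a was -0.78 and the call was lost (adjusted p 0.179).

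The plexins, which receive semaphorin signals through a GTPase-activating domain inside the cell, were called in 1 direction at 24 h of RA-treated cells and in OPC cultures: 5 of 8 rose and 0 fell in each. At 72 h 1 rose and 2 fell. Plxna2 was at 0, 5.86 and 11.3 CPM in ESCs, 49.6, 47.3 and 23.9 CPM at 24 h of RA-treated cells and 20.97, 22.5 and 11.5 CPM at 72 h. In OPC cultures it reached 63.3 and 59.05 CPM (WT-H3.3) and 72.2 and 87.8 CPM (H3.3K27M), and its log2 fold changes were 2.62 ± 0.20, 1.55 ± 0.24 and 3.29 ± 0.18. Every later library was above every ESC library. Plxna4, a partner of Nrp1 and Nrp2, stayed at or below 1.95 CPM in the RA libraries and was at 15.2 and 9.41 CPM (WT-H3.3) and 13.7 and 8.88 CPM (H3.3K27M) in OPC cultures (log2 fold change 4.52 ± 0.30). It was among the rises at 24 h, at 1.16, 1.95 and 0.390 CPM, which overlapped ESCs. That call was lost with the length trend described below taken out (0.29). Plxna1 rose at 24 h (341, 271 and 269 CPM against 56.9, 121 and 190.5 CPM, log2 fold change 1.30 ± 0.22) and fell at 72 h (52.9, 44.4 and 44.9 CPM, -1.27 ± 0.29). Its rise was no longer called with a trend on gene length, described below, taken out (0.26, adjusted p 0.217), nor its fall with DESeq2, with the size factors of DESeq2 or with the WT-H3.3 libraries only. Plxnb2 had log2 fold changes of 0.93 ± 0.16 and -1.09 ± 0.20, of which the second was called, but not with DESeq2 or its size factors (smallest fall -0.73). Of the neuropilins, Nrp2 was at 0, 25.9 and 41.6 CPM in ESCs, 48.4, 58.3 and 58.2 CPM at 24 h of RA-treated cells (1.12 ± 0.31) and 104 and 110.1 CPM (WT-H3.3) and 9.17 and 13.7 CPM (H3.3K27M) in OPC cultures (1.14 ± 0.31). The OPC value averages lines that differed in direction. The WT-H3.3 libraries were above every ESC library, and both H3.3K27M libraries were below the ESC median. Neither rise of Nrp2 was called with the length trend taken out (0.00, adjusted p 1.00, and 0.80, under the fold threshold). Nrp1, with chromosome 8 kept, had log2 fold changes of 8.14, 7.62 and 7.50, from at most 1.25 CPM in ESCs to 83.9, 84.6 and 53.3 CPM at 24 h of RA-treated cells.

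Robo2, a receptor for Slits, had the largest log2 fold change of all members at 24 h of RA-treated cells. It was at 0, 0 and 0.160 CPM in ESCs, 64.9, 32.4 and 63.2 CPM at 24 h and 13.4, 15.1 and 27 CPM at 72 h. In OPC cultures it was at 15.4 and 11.8 CPM with WT-H3.3 and 17.6 and 17.5 CPM with H3.3K27M, and every library outside ESCs was above every ESC library. Log2 fold changes against ESCs were 9.67 ± 0.27, 8.18 ± 0.32 and 8.06 ± 0.29 (adjusted p 1.22e-26, 2.16e-22 and 8.2e-24). Robo1 was expressed in ESCs already (18.97, 42.96 and 114 CPM) and rose at 24 h to 242, 292 and 165 CPM (2.52 ± 0.23). At 72 h Robo1 was at 27.3, 34.8 and 20.9 CPM, within the ESC range (-0.49 ± 0.32, adjusted p 0.162), and in OPC cultures it fell to 7.55 and 11.3 CPM (WT-H3.3) and 11.03 and 9.46 CPM (H3.3K27M) (-1.95 ± 0.31). Among the Slits, secreted repellents of commissural axons at the midline, Slit3 rose at 24 h of RA-treated cells to 20.1, 21.5 and 24.7 CPM from 0, 1.25 and 2.78 CPM (4.02 ± 0.22). Slit1 was at 0, 0.266 and 0.596 CPM in ESCs and reached 5.90 and 8.50 CPM in WT-H3.3 and 65.3 and 72.8 CPM in H3.3K27M OPC cultures (6.47 ± 0.36). Slit2 was at 3.54, 8.95 and 25.3 CPM in ESCs and 23.6, 43.8 and 18.1 CPM at 24 h of RA-treated cells, groups that overlapped in range, with a called log2 fold change of 1.52 ± 0.38 that fell to 0.17 (adjusted p 0.666, not called) with the length trend taken out.

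The netrin ligands moved apart from each other. Ntn1, the attractant of the floor plate, was at 32.9, 104 and 194 CPM in ESCs, 25.6, 27.9 and 20.7 CPM at 24 h of RA-treated cells and 12.2, 8.63 and 7.89 CPM at 72 h. The RA libraries lay below all ESC libraries, with log2 fold changes of -2.07 ± 0.31 and -3.46 ± 0.37. In OPC cultures Ntn1 was at 57.3 and 46.02 CPM (WT-H3.3) and 47.7 and 64.6 CPM (H3.3K27M) (-0.77 ± 0.25, not past the fold threshold). Ntn4, a netrin related to laminin chains, was at 0, 0.0592 and 0.272 CPM in ESCs and at 6.01, 4.65 and 9.36 CPM at 24 h of RA-treated cells and 19.6 and 19.5 CPM (WT-H3.3) and 14.1 and 15.1 CPM (H3.3K27M) in OPC cultures (6.16 ± 0.31 and 7.83 ± 0.29). Of the 4 tested netrin receptors 3 rose at each RA time point and 4 in OPC cultures, and 0 fell. Unc5c, which turns netrin attraction into repulsion, was at 0, 0.0341 and 0.330 CPM in ESCs, 22.9, 27.3 and 20.9 CPM at 24 h and 14.3, 12.6 and 11.2 CPM at 72 h of RA-treated cells. In OPC cultures it was at 6.97 and 6.80 CPM with WT-H3.3 and 0.155 and 0.728 CPM with H3.3K27M, and the log2 fold changes were 8.18 ± 0.38, 7.29 ± 0.44 and 4.95 ± 0.45. The RA and WT-H3.3 OPC libraries were above the ESC range, and 1 of the H3.3K27M OPC libraries was within it. Unc5b, another repulsive receptor, rose by 1.86 ± 0.19, 1.99 ± 0.19 and 1.32 ± 0.19 from 29.5, 44.99 and 71.1 CPM. Dcc, the receptor through which netrins attract, was at 0, 1.14 and 2.57 CPM in ESCs and 7.95, 6.84 and 2.08 CPM at 24 h of RA-treated cells. Dcc rose in all 3 comparisons (2.21 ± 0.36, 2.48 ± 0.42 and 3.21 ± 0.33), although the H3.3K27L libraries of RA-treated cells, at 2.08 and 2.43 CPM, were within the ESC range.

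Of 7 tested ephrins, 3 rose at 24 h of RA-treated cells, 5 at 72 h and 4 in OPC cultures, and 1 (Efna1) fell in OPC cultures. Efna5, which is anchored to the membrane by a lipid and repels retinal axons in the midbrain, was at 0, 3.90 and 8.75 CPM in ESCs, 66.8, 106 and 59.7 CPM at 24 h and 33.1, 34.2 and 20.3 CPM at 72 h. In OPC cultures it was at 18.7 and 16.4 CPM with WT-H3.3 and 4.20 and 5.39 CPM with H3.3K27M, the latter within the ESC range. The log2 fold changes of Efna5 were 4.43 ± 0.26, 3.04 ± 0.31 and 1.46 ± 0.30. Efnb1, a transmembrane ephrin, was more even over the later stages: it was at 0, 4.28 and 12.4 CPM in ESCs, 71.5, 78.5 and 49.8 CPM at 24 h, 53.7, 64.4 and 43.4 CPM at 72 h and 71.8 and 68.01 CPM (WT-H3.3) and 63.7 and 58.8 CPM (H3.3K27M) in OPC cultures. No later library overlapped the ESC range, and its log2 fold changes were 3.70 ± 0.22, 3.46 ± 0.24 and 3.67 ± 0.22. Efnb2, with chromosome 8 kept, had a log2 fold change of 5.52 at 24 h of RA-treated cells, where it was at 236, 295 and 124 CPM, and of 1.12 in OPC cultures. The OPC value averages WT-H3.3 libraries at 27 and 22.1 CPM and H3.3K27M libraries at 2.175 and 1.019 CPM.

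Eph receptors are a large family of receptor tyrosine kinases. Some were already on in ESCs, of which some fell and others rose, and some came on later. Of 9 tested 6 rose and 1 fell at 24 h of RA-treated cells, 5 rose and 2 fell at 72 h, and 6 rose and 2 fell in OPC cultures. The receptors that fell were Epha2 and Epha4. Epha2 was at 85.3, 142 and 227 CPM in ESCs, 72.3, 71.1 and 82.05 CPM at 24 h and 26, 26.8 and 57.3 CPM at 72 h of RA-treated cells. In OPC cultures it was at 25.4 and 26.6 CPM with WT-H3.3 and 1.86 and 1.60 CPM with H3.3K27M. All later libraries were below all ESC libraries, and the log2 fold changes were -0.96 ± 0.35 (not past the fold threshold), -1.997 ± 0.40 and -3.33 ± 0.38. Epha4 fell in all 3 comparisons (-1.20 ± 0.25, -1.64 ± 0.27 and -2.06 ± 0.24) from 83.2, 117 and 180.3 CPM. Epha5 was almost absent from ESCs and RA-treated cells (at most 0.617 CPM at 24 h of RA-treated cells) and was at 24.1 and 36.2 CPM in WT-H3.3 and 112 and 146 CPM in H3.3K27M OPC cultures. With a log2 fold change of 9.45 ± 0.29 (adjusted p 4.33e-26) it had the largest rise of the members in OPC cultures. Epha3 was highest in RA-treated cells (8.91, 19.7 and 7.28 CPM at 24 h, 11.3, 16.3 and 8.80 CPM at 72 h) and lower in OPC cultures (2.42 and 1.13 CPM with WT-H3.3, 1.55 and 2.04 CPM with H3.3K27M), from 0, 0 and 0.364 CPM in ESCs. Its log2 fold changes were 7.50 ± 0.33, 7.63 ± 0.37 and 4.58 ± 0.41. Epha7 also had its highest levels in RA-treated cells, at 65.7, 88.6 and 51.4 CPM at 24 h and 77.2, 96.8 and 50.7 CPM at 72 h against 0, 5.29 and 7.91 CPM in ESCs (3.63 ± 0.17 and 3.83 ± 0.17). Ephb3 was at 14.2, 39.7 and 69.6 CPM in ESCs, 225, 167 and 412 CPM at 72 h of RA-treated cells and 234 and 228 CPM (WT-H3.3) and 163 and 186 CPM (H3.3K27M) in OPC cultures (2.75 ± 0.21 and 2.53 ± 0.20). Ephb1, a receptor that guides retinal axons at the optic chiasm, was at 0, 0.332 and 0.824 CPM in ESCs, 2.33, 2.94 and 2.86 CPM at 24 h of RA-treated cells and 22.9 and 25.3 CPM (WT-H3.3) and 20.2 and 21.5 CPM (H3.3K27M) in OPC cultures (2.90 ± 0.33 and 5.94 ± 0.26).

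**Figure D2:**
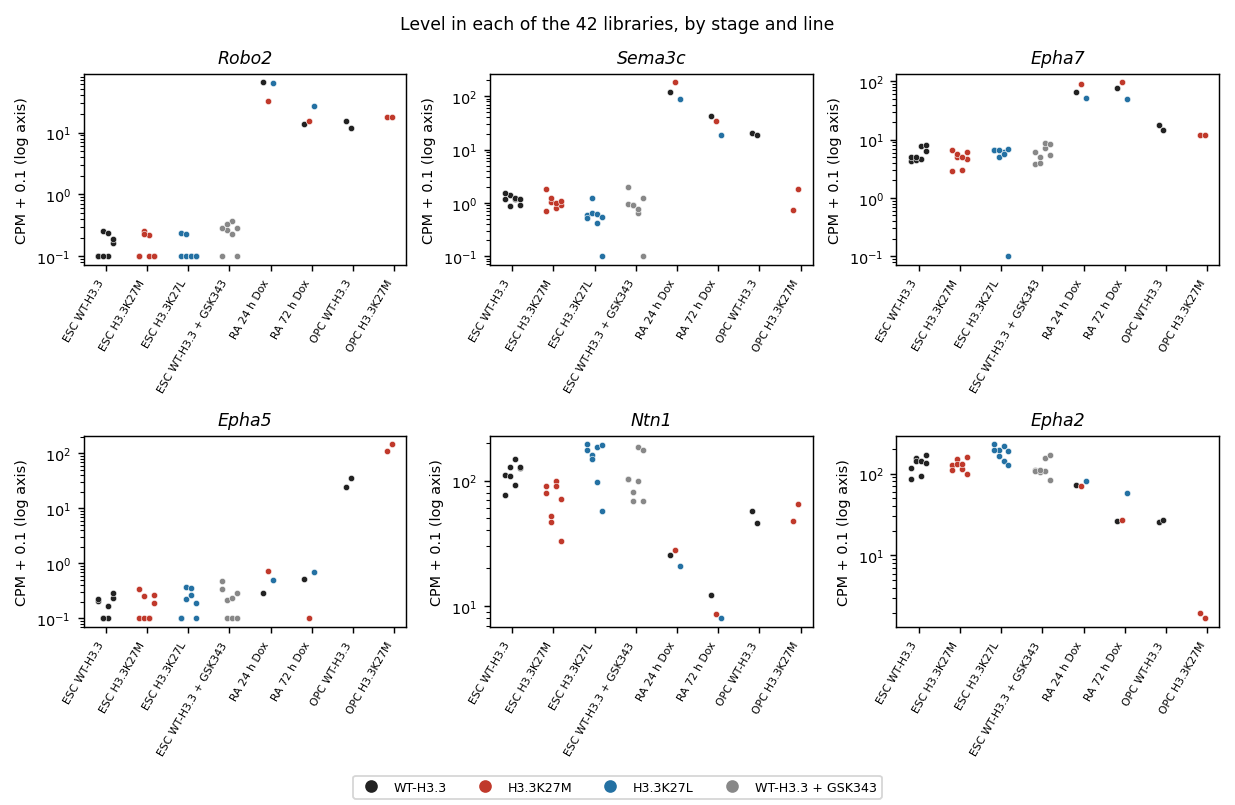
Level of 6 members in each library (points, coloured by line) at each stage, as CPM + 0.1 on a log axis. Robo2 and Sema3c are highest in RA-treated cells at 24 h, Epha5 is above 24 CPM in OPC cultures only, and Ntn1 and Epha2 are lower in every RA-treated library than in any ESC library.

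Other genes of the pathway were counted from lists written by hand. Of 20 other ligands, receptors and co-receptors tested, 15 rose and 3 fell at 24 h of RA-treated cells, 8 rose and 4 fell at 72 h, and 11 rose and 5 fell in OPC cultures. Flrt3, which binds Unc5 receptors and Robo1, rose by 4.57 ± 0.18 at 24 h of RA-treated cells, and Chl1, a cell adhesion molecule, by 12.51 ± 0.24 in OPC cultures. Of 37 intracellular effectors 16 rose and 1 fell at 24 h, 10 rose and 9 fell at 72 h, and 16 rose and 8 fell in OPC cultures. Of all genes tested 24.6% rose and 18.7% fell at 24 h, 26.6% and 31.1% at 72 h, and 31.4% and 35.7% in OPC cultures. Whether these lists differ from all genes was not tested. Mical2, of a family of oxidases that take apart actin filaments downstream of plexins, rose by 6.48 ± 0.30 at 24 h of RA-treated cells, while its relative Mical1 had a log2 fold change of -1.27 ± 0.19 and was also lower in OPC cultures (-8.63 ± 0.35), where Dpysl2, a mediator of Sema3a signalling, had 4.87 ± 0.17.

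Between the Dox times of RA-treated cells, 19 of 51 tested members were called: 3 were higher at 72 h and 16 lower (edgeR with a term for the line). Over all genes 42.9% were called, 20% higher and 22.9% lower, and the median log2 fold change was -0.61 for the members and -0.07 for all genes. Efna2, a membrane-anchored ephrin, was at 17.4, 24.6 and 17.6 CPM at 24 h and 68.4, 81.1 and 66.4 CPM at 72 h (log2 fold change 2.15 ± 0.15, adjusted p 7.62e-08). Ephb3 was at 87.6, 54.1 and 114 CPM and 225, 167 and 412 CPM (1.91 ± 0.14). In both genes all 72 h libraries were above all 24 h libraries, and 65.9% of all genes tested had no overlap between the Dox times. Robo1 was at 242, 292 and 165 CPM at 24 h and 27.3, 34.8 and 20.9 CPM at 72 h (-2.77 ± 0.14, adjusted p 8.04e-09). Plxna1 was at 341, 271 and 269 CPM and 52.9, 44.4 and 44.9 CPM (-2.33 ± 0.14), and Plxnb2 had -1.78 ± 0.14. The 24 h and 72 h libraries of these genes did not overlap. Slit3 (-1.90 ± 0.25), Plxnd1 (-2.05 ± 0.30), Sema3c (-1.76 ± 0.18), Sema3e (-1.72 ± 0.18) and Sema5b (-3.07 ± 0.74) also fell.

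The length of a gene moved with this difference. Over all genes the median log2 fold change of 72 h against 24 h ran from 1.64 for the 534 genes with under 1 kb of exon to -0.65 for those above 8 kb, and members are long (median 6328 exonic bases). For 24 h against ESCs it ran the other way, from -0.84 to 0.60. The methods name a 3′ end kit and a whole-transcript kit without saying which library used which, so that stage or Dox time and library kit cannot be told apart. With the trend on length taken out of the counts, an alternative added after seeing the data, 13 members were higher and 5 lower at 72 h than at 24 h, with a median of 0.13 for the members and 0.38 for all genes. Only the rises of Efna2, Ephb3 and Sema4c and the falls of Plxna1, Plxnd1, Slit3, Sema5b and Robo1 were called both ways. For 24 h against ESCs the same step left 26 rises and 11 falls (members' median 0.89, all genes -0.38), and Sema3b, Plxna1, Plxna4, Nrp2, Slit2, Epha5 and Ephb3 lost their calls. In OPC cultures against ESCs Sema3f, Sema4b, Nrp2 and Ephb2 lost theirs, and at 72 h of RA-treated cells against ESCs 0 of 37 did.

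**Figure D3:**
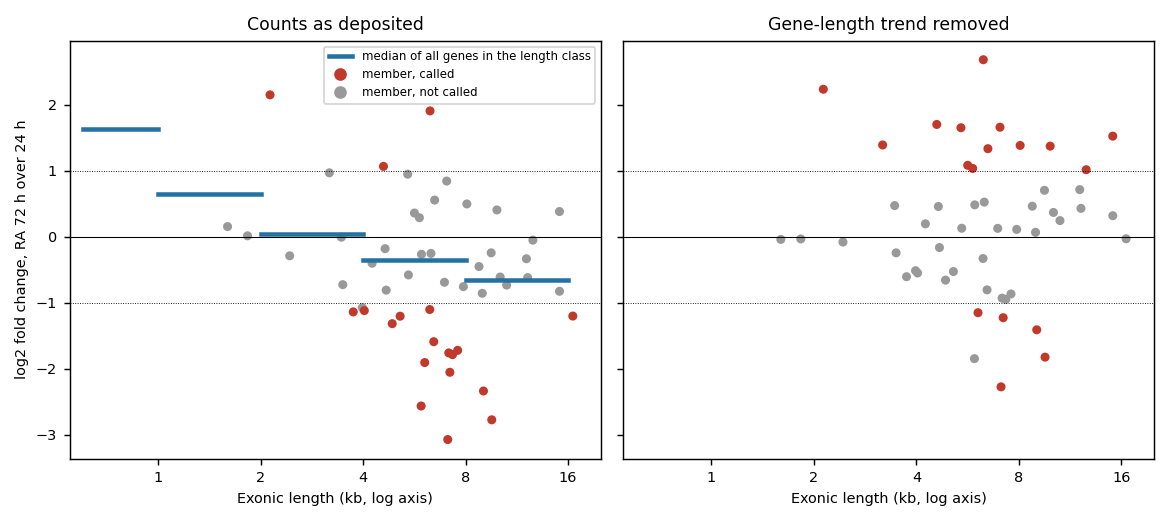
Log2 fold change of RA-treated cells at 72 h against 24 h of Dox (vertical axis) by exonic length in kb (log axis), for each member (points, called ones in red), with the counts as deposited and after the length trend was taken out. Bars in the first panel are medians of all genes by length class, which fall from 1.64 to -0.65, and most members lie above 4 kb.

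Between the lines, the OPC cultures differed most. Of 52 members tested there, 21 were called, with 8 higher and 13 lower in H3.3K27M than WT-H3.3 cultures, where 27.9% of all genes were called (12.9% higher, 15% lower). The members' median log2 fold change was -0.18, beside 0.00 over all genes. Each line had 2 libraries, 1 at each Dox time. Markers of other cells moved with the line in these libraries. Fibroblast markers summed to 778.7 to 833.5 CPM in WT-H3.3 and 67.97 to 71.47 CPM in H3.3K27M cultures (10 of 12 tested lower, 1 higher), with Col3a1 at 247.6 and 3.79 CPM. Extraembryonic endoderm markers summed to 3229 to 3612 and 750 to 970 CPM (8 of 8 lower), and Afp was at 0 in H3.3K27M cultures. Oligodendrocyte lineage markers summed to 596.3 to 635.1 CPM with WT-H3.3 and 1919 to 2142 CPM with H3.3K27M (5 of 9 higher, 2 lower), and neuron markers to 956.6 to 958.2 and 1869 to 1994 CPM. Of 11 neuron markers tested 4 were higher and 6 lower with H3.3K27M (median log2 fold change -1.05), and Map2 carried the sum, at 631.4 and 637.9 CPM with WT-H3.3 and 1720 and 1856 CPM with H3.3K27M. Stmn2, a marker of young neurons, was at 175.9 and 124.9 CPM with WT-H3.3 and 0.932 and 0.582 CPM with H3.3K27M. Endothelial markers summed to 33.87 to 50.32 and 2.62 to 6.84 CPM (2 of 4 tested lower), neural progenitor markers to 8093 to 8194 and 4972 to 6592 CPM (4 of 9 higher, 1 lower) and astrocyte markers to 1419 to 1443 and 1620 to 2182 CPM (1 of 8 higher, 3 lower). Vim carried the lower neural progenitor sum, at 4523 and 4240 CPM with WT-H3.3 and 1066 and 1220 CPM with H3.3K27M. Pax6 went the other way, at 5.03 and 4.53 CPM with WT-H3.3 and 30.8 and 28.8 CPM with H3.3K27M. Neural crest markers overlapped between the lines (744.1 to 930.7 and 822.7 to 961.8 CPM). Their part in the values below was not tested.

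Among the ligands with higher levels in H3.3K27M cultures, Slit1 was at 5.90 and 8.50 CPM with WT-H3.3 and 65.3 and 72.8 CPM with H3.3K27M (log2 fold change 3.29 ± 0.21, adjusted p 6.03e-07). The other Slits were lower: Slit2 was at 29.4 and 26.3 CPM (WT-H3.3) and 5.75 and 4.80 CPM (H3.3K27M) (-2.38 ± 0.22) and Slit3 at 3.58 and 3.51 CPM (WT-H3.3) and 1.71 and 1.16 CPM (H3.3K27M) (-1.28 ± 0.41). The Slit family, called in 3 of 3 genes, thus changed in both directions. Efna2 was at 24.7 and 26.4 CPM (WT-H3.3) and 84.8 and 86.6 CPM (H3.3K27M) (1.77 ± 0.15), and Sema6c and Sema4c rose by 2.06 ± 0.37 and 1.15 ± 0.18. Among secreted semaphorins Sema3c was at 20.4 and 18.8 CPM with WT-H3.3 and 0.622 and 1.75 CPM with H3.3K27M (-3.99 ± 0.36, adjusted p 5.85e-06). Sema3e, the ligand of Plxnd1 in growing vessels, had 148 counts in both WT-H3.3 libraries together and 1 in both H3.3K27M libraries, a ratio of 103 (95% exact interval 18.2 to 4088, counting error only). Sema7a was at 9.39 and 9.07 CPM (WT-H3.3) and 0.777 and 0.728 CPM (H3.3K27M) (-3.57 ± 0.39). Efna3 and Efna5, both lipid-anchored, had log2 fold changes of -2.76 ± 0.28 and -1.85 ± 0.25, with Efna3 at 15.5 and 15.6 CPM (WT-H3.3) and 2.33 and 2.18 CPM (H3.3K27M). In each of these genes the 2 lines did not overlap, as was the case for 76.5% of all genes tested.

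Of the receptors, Nrp2 was at 104 and 110.1 CPM with WT-H3.3 and 9.17 and 13.7 CPM with H3.3K27M and had the lowest adjusted p (-3.20 ± 0.19, adjusted p 4.37e-07). With chromosome 8 kept, the other neuropilin, Nrp1, was at 96.2 and 100.3 CPM (WT-H3.3) and 18.96 and 27.9 CPM (H3.3K27M) and had a log2 fold change of -2.04. Epha2 was at 25.4 and 26.6 CPM (WT-H3.3) and 1.86 and 1.60 CPM (H3.3K27M) (-3.88 ± 0.27) and Epha4 at 50.1 and 42.5 CPM (WT-H3.3) and 13.2 and 15.3 CPM (H3.3K27M) (-1.68 ± 0.18). Both of these Eph receptors were thus lower, and Epha5 was higher, at 24.1 and 36.2 CPM with WT-H3.3 and 112 and 146 CPM with H3.3K27M (2.12 ± 0.21, adjusted p 1.17e-05). All 4 tested netrin receptors were called, in opposite directions: Dcc was at 5.71 and 7.93 CPM (WT-H3.3) and 16.6 and 20.4 CPM (H3.3K27M) (1.47 ± 0.25) and Unc5a at 2.13 and 3.97 CPM (WT-H3.3) and 8.70 and 9.32 CPM (H3.3K27M) (1.60 ± 0.34), both higher. Unc5b was at 143 and 193 CPM (WT-H3.3) and 66.03 and 54.6 CPM (H3.3K27M) (-1.46 ± 0.18) and Unc5c at 6.97 and 6.80 CPM (WT-H3.3) and 0.155 and 0.728 CPM (H3.3K27M) (-3.87 ± 0.51), both lower. Plxnc1, a receptor of Sema7a, was the 1 plexin called, at 3.19 and 5.67 CPM with WT-H3.3 and 13.1 and 16.4 CPM with H3.3K27M, a log2 fold change of 1.77 ± 0.31. Robo3, which lets commissural axons cross the midline, had 54 counts with WT-H3.3 and 3 with H3.3K27M, a ratio of 12.5 (95% exact interval 4.06 to 62.5). Unc5d had 115 counts with WT-H3.3 and 0 with H3.3K27M, so that it was at least 26.6-fold lower (against 3 counts over the group). Sema4f had 9 and 0 counts, at least 2.08-fold lower. Efnb2 was at 27 and 22.1 CPM (WT-H3.3) and 2.17 and 1.02 CPM (H3.3K27M), a log2 fold change of -3.92 with chromosome 8 kept (adjusted p 4.109e-06).

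**Figure D4:**
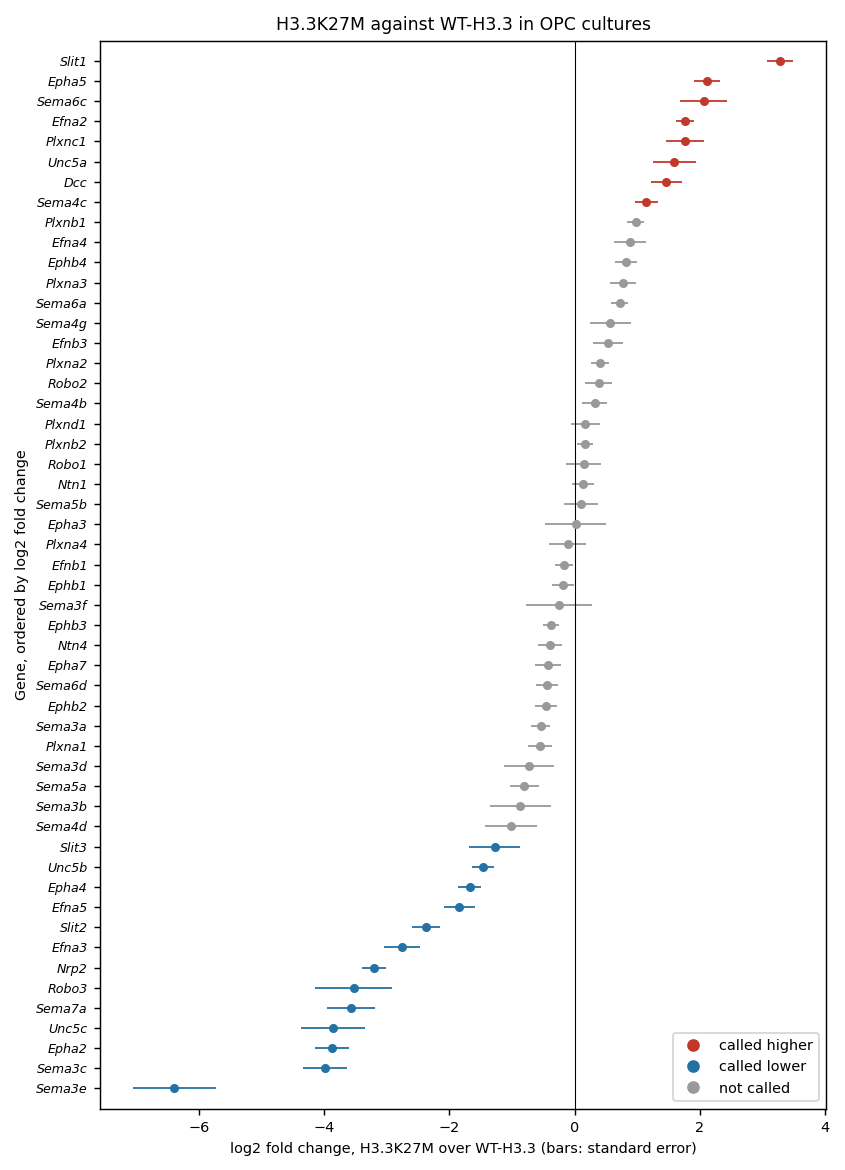
Log2 fold change (horizontal axis, bars show the SE) of the 52 tested members (rows, in order of the change) in H3.3K27M against WT-H3.3 OPC cultures. Called members are coloured and others grey. The 13 lower members range from -6.40 (Sema3e) to -1.28 (Slit3), and the 8 higher ones from 1.15 (Sema4c) to 3.29 (Slit1).

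The other pathway genes in OPC cultures included 2 ligands and receptors higher and 5 lower of 13 tested, and 4 effectors higher and 8 lower of 34. Of all genes tested 12.9% were higher and 15% lower with H3.3K27M. Draxin, a secreted repellent that binds Dcc, and Dscam, a netrin co-receptor, rose by 3.14 ± 0.35 and 1.87 ± 0.31. Flrt2 and Flrt3, which bind Unc5 receptors, had log2 fold changes of -2.80 ± 0.22 and -1.99 ± 0.18. Fyn, a kinase downstream of Dcc and plexins, rose by 1.45 ± 0.15, and Rnd1, a GTPase that binds plexins, had -3.19 ± 0.24.

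In ESCs, 43 members were tested between lines and few differed. With H3.3K27M in place of WT-H3.3, over all Dox times, 0 of 43 were called by edgeR (0.0143% of all genes, 0.00714% in each direction), 10 had an unadjusted p under 0.05, and DESeq2 also called 0. At 24 and 72 h 0 were called (0% of all genes), with 6 at an unadjusted p under 0.05. The H3.3K27L line had 2 calls over all times, both lower (3.43% of all genes, 0.628% higher and 2.8% lower), and 0 at 24 and 72 h (0.507% of all genes, 0.0714% higher and 0.435% lower, 6 members at an unadjusted p under 0.05). GSK343 against untreated cells gave 0 calls over all times and at 24 and 72 h (0% of all genes each), with 2 and 1 members at an unadjusted p under 0.05. For the comparisons with 0 calls DESeq2 called 0 as well. These comparisons share the WT-H3.3 libraries.

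Dcc was the called member with the larger change between ESC lines. Its lowest, median and highest levels were 1.41, 2.06 and 2.57 CPM with WT-H3.3, 0.321, 1.00 and 1.37 CPM with H3.3K27M and 0, 0.544 and 1.11 CPM with H3.3K27L. With GSK343 they were 0.526, 1.18 and 2.21 CPM. All 8 H3.3K27M and all 8 H3.3K27L libraries were below all 8 WT-H3.3 libraries, while GSK343 overlapped them. Of all genes tested, 0.0642% and 1.61% had no overlap with WT-H3.3 in these mutant lines. Among the H3.3K27L libraries, the one of 68378 counts held 0 counts of Dcc, which at this depth does not show a lower level. The 1.61% includes this library. The log2 fold change was -1.16 ± 0.34 with H3.3K27M (adjusted p 0.183), -1.80 ± 0.40 with H3.3K27L (adjusted p 0.00591) and -0.79 ± 0.35 with GSK343 (adjusted p 0.973). In OPC cultures the H3.3K27M value of Dcc had the opposite sign, and the difference between stages was 2.63 ± 0.48 (interaction, adjusted p 0.00025). Dcc in H3.3K27L ESCs lost its call without replicate 1 of 72 h (adjusted p 0.29), which left only the 68378-count library at that time. Sema3c was at 0.770, 1.09 and 1.46 CPM with WT-H3.3 and 0, 0.473 and 1.13 CPM with H3.3K27L, ranges that overlapped (-1.06 ± 0.31, adjusted p 0.0329). Its call was lost in 15 of 25 alternatives. Sema4c (0.96 ± 0.28), Ntn1 (-0.69 ± 0.18) and Efna5 (-0.97 ± 0.27) were among the 10 members at an unadjusted p under 0.05 with H3.3K27M, at adjusted p-values of 0.175, 0.159 and 0.166.

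In RA-treated cells the lines had 1 library at each Dox time, and 0 of 51 members were called in any of the 3 comparisons of lines (0% of all genes in each). At an unadjusted p under 0.05 0 members differed for H3.3K27M and 2 for H3.3K27L, each set against the WT-H3.3 line, and 3 between both mutants, and DESeq2 called 0. The 2 Dox times differed far more than the lines, and with the Dox time as a block, the same comparisons called 0 members (0.0163% of all genes, 0.00817% in each direction), 3 (3.64%, with 1.5% higher and 2.13% lower) and 10 (6.72%, with 3.13% higher and 3.59% lower). The 3 in H3.3K27L cells were Dcc (-2.02 ± 0.40) and Sema3b (-1.43 ± 0.33), which were lower, and Sema6d (1.43 ± 0.40), which was higher. Dcc was at 7.95 CPM with WT-H3.3 and 2.08 CPM with H3.3K27L at 24 h, and at 10.5 and 2.43 CPM at 72 h, so that it was lower in H3.3K27L at both times. Against H3.3K27L, the H3.3K27M libraries had higher Slit2 (1.21 ± 0.23), Sema3d, Sema6c, Epha3, Sema3b (1.26 ± 0.31) and Dcc (1.53 ± 0.38), and lower Ephb3 (-1.27 ± 0.16), Robo2 (-1.04 ± 0.25), Sema6d (-1.43 ± 0.36) and Ntn4. Robo2 was at 32.4 CPM with H3.3K27M and 63.2 CPM with H3.3K27L at 24 h, and at 15.1 and 27 CPM at 72 h. Extraembryonic endoderm markers also varied between these libraries, from 4012 to 25215 CPM at 24 h, and their part was not tested.

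**Figure D5:**
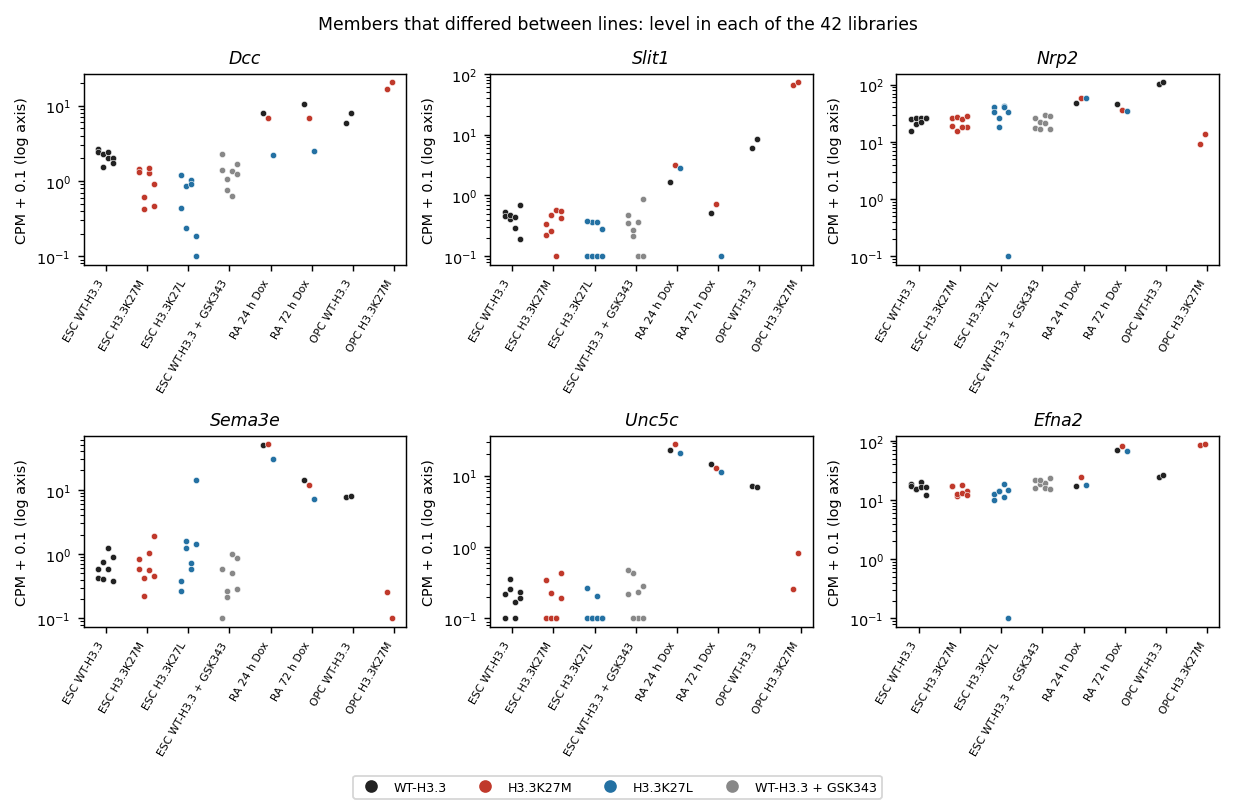
Level of 6 members in each of the 42 libraries (points, coloured by line), as CPM + 0.1 on a log axis, in groups by stage and line. Dcc is lower in H3.3K27M and H3.3K27L than in WT-H3.3 ESCs and, in OPC cultures, highest with H3.3K27M, while the other 5 members differ between the OPC lines and overlap between ESC lines.

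Whether the effect of H3.3K27M differed between OPC cultures and ESCs was tested directly by an interaction in one edgeR model of 20 libraries. Of 56 members tested 18 were called, 6 more positive and 12 more negative in OPC cultures, where 17.3% of all genes were called (7.32% more positive, 10% more negative). The members more positive in OPC cultures were Slit1, Dcc, Plxnc1, Efna2, Sema6c and Sema6a. Those more negative included Sema3e, Epha2, Sema3c, Unc5c, Sema7a, Nrp2, Slit2 and Efna3, with values between -6.56 and -3.04 on the log2 scale. Epha5, although called in OPC cultures, had an interaction of 2.09 ± 0.89 (adjusted p 0.0977). Epha5 was at most 0.272 CPM in the ESC libraries of the 3 lines. Among the called members, Slit1 and Unc5c were at most 0.596 and 0.330 CPM in WT-H3.3 and H3.3K27M ESCs, and Sema3e at most 1.81 CPM. At such levels an effect in ESCs can hardly be measured, so that these interactions rest mainly on the OPC values.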

How the data were processed

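RNA-seq of 42 libraries was used (32 of ESCs, 6 of RA-treated cells, 4 of OPC cultures), grouped by their labels, and the ChIP-seq data were not analysed here. The authors aligned reads with STAR 2.7.1 (genome mm9) and deposited the raw count of each gene, not normalized. The annotation used for counting is not given in the sources used here. The tables held 55471 genes and no row without a gene, and 32589 genes, with 98.2% of the counts, were matched to the mm9 annotation for position and exonic length. Genes of chromosome 8 (2532 genes, 5.85% of counts) were left out, as in the methods. No libraries were copies (lowest chi-square 1.63 per gene between a pair). The total counts ranged from 68378 to 22269533 per library, and intervals and floors of 3 counts cover counting error only.

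Counts were tested with edgeR 4.0.16 in R 4.3.3 (TMM, filterByExpr, quasi-likelihood F test), adjusted by Benjamini-Hochberg over all genes tested (ESC lines 14012, RA 12233, OPC 12467, stages 15527, interaction 15442), and called at an adjusted p under 0.05 and over 2-fold. Fits were tested on simulated data. CPM were scaled by TMM over the 42 libraries. Alternatives used DESeq2 1.42.0, other filters, thresholds, libraries and blocks, and each library left out in turn. The crossed replicate numbers, the trend on gene length and the removal of the shallowest libraries were added after seeing the data. Promoter windows are those at a listed RefSeq start on GRCm38.p6, which need not be the start used in these cells. Python 3.11.15, pandas 2.3.3, NumPy 2.4.6, SciPy 1.17.1 and Matplotlib 3.10.9 were used.

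The members and lists were chosen with earlier results of these data known. Named genes are, for each comparison, called members of the lowest adjusted p in each direction, and members needed to describe a family, which were chosen after their values were seen. Differences between replicates 1 and 2 in ESCs, compared for H3.3K27M and WT-H3.3 lines, correlated at 0.618, 0.718, 0.613 and 0.713 at 4, 8, 24 and 72 h (8499 genes), so that replicate numbers pair these lines, as a pattern in the data and not from the labels.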

Additional observations from a re-analysis of the deposited data

Results flagged for a closer look

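In groups of 8 ESC libraries, the highest or lowest library stood apart from the other 7 by Dixon's test in 20 of 163 combinations of a member and a group. Chance gives about 1 in 20 groups, and the libraries of a group share their depth. Of the 20, 16 were in H3.3K27L replicate 2 at 72 h, the library of 68378 counts, in which 1 count is 14.23 CPM. There Sema4d, Plxna2, Plxna3, Plxnb1, Efna2, Efna3, Efna4 and Epha7 were at 0 CPM, which at this depth does not show absence. Sema3e, Sema4b, Sema6b, Plxnc1 and Ephb3 were at 14.23 CPM, that is 1 count, Plxnb2 at 28.46 CPM, Ephb2 at 56.91 CPM and Robo1 at 113.8 CPM. The other 4 were Sema7a at 4.386 CPM in WT-H3.3 replicate 1 at 4 h (others 2.308 to 3.084), Sema3f at 7.381 CPM in H3.3K27M replicate 2 at 8 h (others 1.484 to 4.048), Sema4a at 6.429 CPM in H3.3K27M replicate 2 at 72 h (others 8.492 to 10.25), and Efna3 at 13.26 CPM in GSK343 replicate 2 at 8 h (others 6.442 to 9.589), a library of 1247934 counts.

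The effect of H3.3K27M against WT-H3.3 differed between OPC cultures and ESCs in 18 members by the interaction test of edgeR. On the log2 scale (OPC minus ESC) it was 3.542 for Slit1, 2.633 for Dcc, 2.02 for Plxnc1, 1.929 for Efna2, 1.846 for Sema6c and 1.318 for Sema6a. It was -6.562 for Sema3e, -3.869 for Epha2, -3.851 for Sema3c, -3.819 for Unc5c, -3.547 for Sema7a, -3.122 for Nrp2, -3.083 for Slit2, -3.041 for Efna3, -1.569 for Epha4, -1.391 for Sema4d and -1.347 for Unc5b. The values of Slit1, Unc5c and Sema3e rest mainly on the OPC libraries, since these genes were near the floor in ESCs. Sema4f had -5.027, a fitted value that is no bound, since both H3.3K27M OPC libraries held 0 counts of it. The interaction of Sema6a kept its call in 7 of 11 alternatives and lost it when any 1 of the 4 OPC libraries was left out. Those of Sema4d and Sema4f lost their calls in 3 of 11, that of Plxnc1 in 2 of 11 and that of Unc5c in 1 of 10, each with an OPC library left out.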

How the results depend on the processing

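Of the called differences of single members 121 were followed through the alternatives, of which 98 were called under every one and 0 reversed. The 121 were chosen for the lowest adjusted p in each direction and comparison, so that they do not stand for all called members. The alternative with a fold change of 1.5 could not lose a call. Others, such as the rises of Plxna1, Nrp2 and Slit2 at 24 h of RA-treated cells, were not among the 121 and lost their calls with the length trend removed. That step turned 3 rises and 16 falls of RA 72 h against 24 h into 13 and 5, and 33 and 6 of RA 24 h against ESCs into 26 and 11. The latter became 31 and 10 without the H3.3K27M OPC library of 24 h. Total counts of called members, both directions together, moved by over 1.5 times for the ESC lines and the RA lines. For H3.3K27M against WT-H3.3 ESCs over all times, no filter on low counts gave 1 (Dcc, in place of 0), and leaving out 1 library at a time gave 0 to 3, with 1 (Sema4c) without H3.3K27M replicate 1 at 4 h and 3 (Dcc, Efna5, Sema4c) without H3.3K27M replicate 1 at 8 h. For H3.3K27L over all times the 2 calls became 1 with DESeq2, without a filter, with a minimum mean of 1 CPM and with only the libraries compared, and 5 at a fold change of 1.5, and leaving out 1 library at a time gave 0 to 2, with 0 without H3.3K27L replicate 1 at 72 h and 1 (Dcc) without any of 9 other libraries. At 24 and 72 h it was 1 (Sema5a) without a filter, and 0 to 1 with libraries left out, with 1 (Ephb2) without H3.3K27L replicate 2 at 24 h. In RA-treated cells, the Dox time as a block gave 3 members for H3.3K27L cells set against the WT-H3.3 line and 10 between both mutants, in place of 0, and with the length trend also removed 3 and 9. The cause of these moves was not tested.

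The replicate block called 0 and 0 members for H3.3K27M in ESCs, 2 and 0 for H3.3K27L, 0 and 0 for GSK343, 21 in OPC cultures and 19 for the interaction, so that it changed none of these counts by over 1.5 times. In OPC cultures this block is also the Dox time, and replicate identity is uncertain, since the deposited table names all 4 columns replicate 2 and the titles number the 72 h libraries 1. Dcc in H3.3K27M ESCs had an adjusted p of 0.0613 with the block. Replicate differences of WT-H3.3 and H3.3K27L ESCs correlated at -0.604, -0.711 and -0.682 at 4, 8 and 24 h and 0.26 at 72 h, and with crossed numbers 2 and 0 members were called. For GSK343 the correlations were 0.00748, -0.299, -0.462 and 0.586, and for OPC cultures 0.287 from 1 pair. Depth limits ESC values of genes near 1 CPM, and 2 libraries per OPC line give no estimate of the spread at 1 Dox time.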
